A study of Homo sapiens with 6 samples.

Results

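The count table of this study holds 6 columns for its shIGF2BP2 samples, in a set whose column names carry a 3 and a set whose names carry a 2, and these sets are compared here across genes. Set 3 and set 2 have 3 columns each and together stand for 3 of the 6 samples of the series; the other 3 samples, labelled puro, have 1 column each and are used only to show the control level. All samples are 786-O cells, an established human line from a clear cell renal carcinoma, in which HIF-2 alpha is known to be constitutively active. In set 3 and in set 2 a short hairpin RNA was directed at IGF2BP2; the control is named only by puro, which the labels do not spell out. The labels explain neither the 3 nor the 2 in the column names. The last number of each name was read as the sample number, as in the puro columns, so that each shIGF2BP2 sample has 1 column in each set. If the first number instead named the sample, each set would be 1 sample measured 3 times, and no test between conditions could be made from them. Nothing in the labels says that the samples are separate cultures, and p-values here measure only the spread between these columns, which may be technical. They also do not say whether the lines are clones or pools. Of 20020 genes listed, 13138 had enough counts in the 6 columns to be tested.

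IGF2BP2 belongs to a family of 3 RNA-binding proteins that bind mRNAs carrying N6-methyladenosine (m6A) and are known to keep such mRNAs stable and translated. A short hairpin RNA is cut by DICER1 after export by XPO5, and the resulting guide strand directs Argonaute proteins to the matching mRNA. Hairpins of different sequence can leave different amounts of the target, and each can also act on mRNAs that match its guide strand only in part. The hairpin sequences are not used here, and no gene below was examined for such matches.

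Totals per column were between 39887632 and 47470019 counts in set 3, between 36830670 and 44298674 in set 2, and between 33821216 and 37143673 in puro. Values below are CPM, in which each column was brought to the same effective library size by TMM factors, and differences are log2 of set 3 over set 2, so that a positive value means higher in set 3. Ribosomal protein genes took 7.76%, 7.2% and 7.14% of the counts in set 3 columns 1 to 3, against 4.50%, 5.28% and 5.13% in set 2, and 6.6%, 5.81% and 6.25% in puro. Mitochondrial mRNAs took 2.65% to 2.80% in set 3, 3.13% to 3.29% in set 2 and 2.26% to 2.40% in puro. Set 3 column 1 and set 2 column 1 lie at the ends of the ribosomal protein share, and counts over all genes and over these genes are therefore also given without both of them. Correlation of log2 CPM across genes was 0.996 to 0.998 within each set and 0.970 to 0.973 between the sets; genes are not independent replicates, so this only describes the libraries. No 2 columns were alike within sampling noise.

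The targeted gene was reduced in both sets, and less so in set 3. IGF2BP2 (chr3:185643130-185825042, minus strand, GRCh38.p14) stood at 34.5, 31.1 and 35.3 CPM in set 3, against 25.1, 23.5 and 23.1 CPM in set 2, and 75, 76.7 and 79.2 CPM in puro. Every set 3 column was above every set 2 column, and every puro column was above both. Set 3 kept 43.7% of the puro mean and set 2 kept 31.1%. On the log2 scale set 3 exceeded set 2 by 0.49 (SE 0.08, edgeR adjusted p = 1.31e-05). Its paralog IGF2BP3 differed the other way, with 75.7, 73.0 and 66.3 CPM in set 3, 94.7, 88.8 and 101 CPM in set 2, and 69.4, 78.1 and 77.8 CPM in puro, a log2 difference of -0.40 (SE 0.07, edgeR adjusted p = 3.54e-05). The third member, IGF2BP1, was near the limit of detection at 0.209 to 0.400 CPM in set 3, 0.208 to 0.584 CPM in set 2 and 0.299 to 0.522 CPM in puro, and the sets overlapped.

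Most tested genes differed between the sets, mainly by small amounts. By the edgeR quasi-likelihood test at an FDR (false discovery rate) under 0.05, 8065 of 13138 genes (61.4%) were called, 3966 (30.2%) higher and 4099 (31.2%) lower in set 3. Without set 3 column 1 and set 2 column 1, an alternative chosen after seeing the data, 8231 genes were called, 4105 higher and 4126 lower. With no minimum fold, the test called differences of under 1.5-fold in 4516 genes (56.0% of the calls) and of 1.5-fold to 2-fold in 2062. Differences of at least 2-fold were called in 1487 genes, 591 higher and 896 lower in set 3, and of at least 4-fold in 222 genes, 74 higher and 148 lower. Over all tested genes the median difference was -0.02, and among called genes the median size was 0.53 on the log2 scale. The near balance of higher and lower calls rests on the TMM factors, which ran from 0.959 to 0.979 in set 3 and from 1.046 to 1.059 in set 2. Scaled by library totals only, 2977 genes were higher and 5249 lower in set 3, and the median over all genes moved to -0.14. Limma on log2 FPKM values, which carry no such factors, gave 2888 higher and 5139 lower with a pseudocount of 1 and 2909 higher and 5205 lower with 0.1.

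Calls were spread over levels, lengths and chromosomes. In 5 equal bins of genes by mean level, from lowest to highest, 38.3%, 61.5%, 67.5%, 69.6% and 70.1% were called. In 5 equal bins of gene length, from shortest to longest, the median difference was 0.10, -0.01, -0.04, -0.04 and -0.08, with 37.4% of the shortest genes higher in set 3 and 38.4% of the longest genes lower. Without the ribosomal protein genes, which are short, the median of the shortest bin was 0.09. After a smooth trend on length was removed, 4193 genes were higher and 3851 lower.

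**Figure D1:**
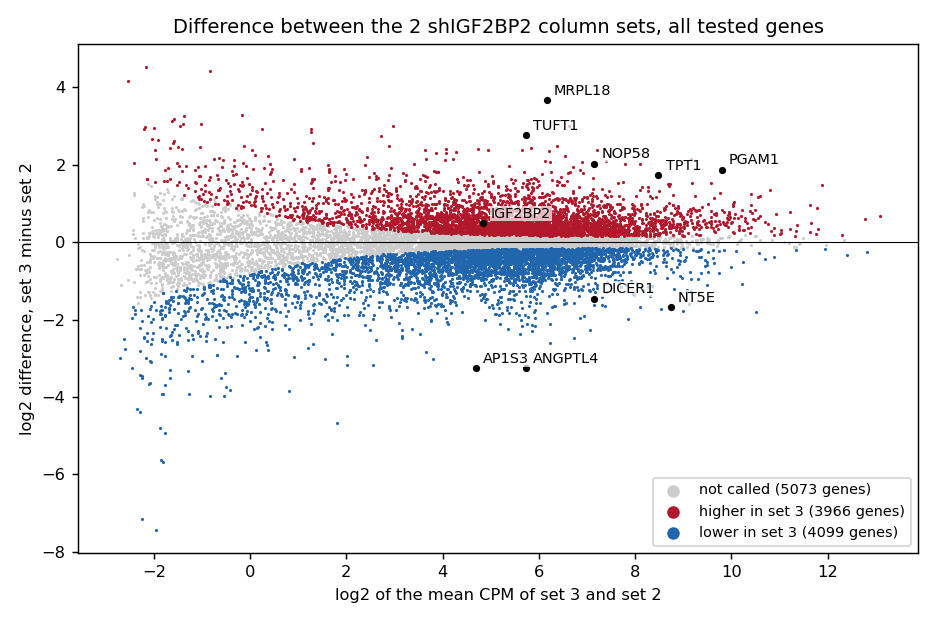
Log2 difference of set 3 minus set 2 (vertical axis) against log2 of the mean CPM of the 6 columns (horizontal axis), 1 point per tested gene, red where higher and blue where lower in set 3 by the edgeR test, grey where not called. The 3966 higher and 4099 lower genes lie on both sides of 0 at every level, with IGF2BP2 at 0.49 among many genes of similar size and MRPL18 at 3.66.

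The puro level is given to show where the control stands beside the sets. No comparison with puro was tested here. Of the 8065 called genes, the puro mean lay between the set means in 3987 (49.4%), above both in 2110 (26.2%) and below both in 1968 (24.4%). Over all 13138 tested genes it lay between in 35.8%. Among the 1487 called genes with a difference of at least 2-fold, it lay between in 997 (67.0%). Puro was nearer to set 3 in 4439 of the called genes (55.0%) and nearer to set 2 in 3626 (45.0%). In 286 called genes set 3 was within 1.25-fold of the puro mean while set 2 was at least 2-fold away, and in 181 genes set 2 was within 1.25-fold while set 3 was at least 2-fold away. In 95 called genes the sets stood on opposite sides of puro, each at least 1.5-fold away, with set 3 above puro in 39 and below it in 56.

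The largest higher differences, among called genes averaging 5 CPM or more over the 6 columns whose sets did not overlap, were in 14 genes, among them MRPL18, P3H2, TXNDC12, TUFT1, LAGE3, GJA1, PLAT, UCP2, ADAMTS15, CENPQ, MT1E, CPA4 and PLAAT3. Their log2 differences lay between 2.37 and 3.66. The puro mean lay between the sets in all 14, which is more likely in genes selected for a wide gap. MRPL18, a protein of the large mitochondrial ribosomal subunit (chr6:159789812-159798429, plus strand, GRCh38.p14), had 148, 132 and 119 CPM in set 3, against 10.5, 9.29 and 11.8 CPM in set 2, and 117, 109.9 and 118 CPM in puro. Set 3 lay just above the puro columns and set 2 far below them, a log2 difference of 3.66 (SE 0.10, edgeR adjusted p = 3.3e-20). P3H2, a prolyl 3-hydroxylase of collagens (chr3:189956728-190122278, minus strand), showed the same order with 164, 178 and 186 CPM in set 3, 21, 23.4 and 22.1 CPM in set 2, and 159, 160.1 and 159 CPM in puro (2.99, SE 0.08). In both genes set 2 stood much farther from puro than set 3 did.

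Some other genes of the 14, such as GJA1 and UCP2, departed from puro mainly in set 3. GJA1, the gap junction protein connexin 43, had 150.2, 140.2 and 134 CPM in set 3, against 25.5, 24.0 and 26.9 CPM in set 2, and 25.6, 29.9 and 29.2 CPM in puro, with a log2 difference of 2.47 (SE 0.08). UCP2, a carrier of the inner mitochondrial membrane, had 82.5, 106 and 101 CPM in set 3, 17.9, 18.2 and 17.9 CPM in set 2, and 27.8, 24.2 and 26.3 CPM in puro (2.42, SE 0.09). TUFT1, tuftelin, stood on opposite sides of puro, with 88.8, 92.8 and 95.2 CPM in set 3, 13.1, 14.1 and 13.6 CPM in set 2, and 39.8, 39.0 and 42.6 CPM in puro (2.76, SE 0.08). Set 2 was the set farther from puro in 8 of the 14 genes and set 3 in 6. MT1E belongs to the metallothioneins, whose near-identical members can share reads, and its value is uncertain for that reason.

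The largest lower differences were in AP1S3, ANGPTL4, FBXW10, PEX5L, COL17A1, PPP2CB, FBXW10B, TRPM8, C5orf15, GPRC5C, WNK4, MIGA1, RAB22A and TP53INP2, between -3.26 and -2.27. AP1S3, a subunit of a clathrin adaptor (chr2:223755326-223837582, minus strand, GRCh38.p14), had 6.62, 4.32 and 3.90 CPM in set 3, against 45.0, 50.1 and 45.6 CPM in set 2, and 52.5, 59.6 and 55.5 CPM in puro. Here set 3 stood far below both other groups and set 2 near puro, a log2 difference of -3.26 (SE 0.13, edgeR adjusted p = 3.14e-17). ANGPTL4, a secreted inhibitor of lipoprotein lipase and a known HIF target (chr19:8364155-8374370, plus strand), had 10.4, 11 and 8.85 CPM in set 3, 92.8, 97.6 and 97.9 CPM in set 2, and 74.6, 67.1 and 68.3 CPM in puro (-3.25, SE 0.09). COL17A1, the transmembrane collagen of hemidesmosomes, had 2.90, 3.52 and 2.84 CPM in set 3, 20.6, 22.3 and 23.2 CPM in set 2, and 6.95, 6.29 and 6.37 CPM in puro (-2.84, SE 0.12), so that the puro level lay between the sets.

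Set 3 was the set farther from puro in 10 of these 14 genes and set 2 in 4. PPP2CB, a catalytic subunit of protein phosphatase 2A, had 21.6, 21.9 and 19.6 CPM in set 3, 134, 127 and 124 CPM in set 2, and 80.1, 80.4 and 81.0 CPM in puro, and each set was at least 1.5-fold from puro on its own side. MIGA1, a protein of the outer mitochondrial membrane that promotes fusion, had 16.8, 14.5 and 16.3 CPM in set 3, 82.2, 76.0 and 87.1 CPM in set 2, and 37.8, 39.0 and 36.0 CPM in puro. VPS4B, an ATPase that takes apart ESCRT complexes, and BLOC1S6, a subunit of a complex that forms lysosome-related organelles, showed the same order, with log2 differences of -2.16 (SE 0.07) and -2.24 (SE 0.08). WNK4, a kinase that regulates ion transport in the kidney tubule, was instead near puro in set 3, with 3.22, 3.67 and 4.24 CPM in set 3, 19.7, 18.8 and 19.6 CPM in set 2, and 4.86, 3.68 and 3.56 CPM in puro. FBXW10 and FBXW10B are close copies, and so are PPP2CB and PPP2CA in their coding parts, so reads may be split between them.

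**Figure D2:**
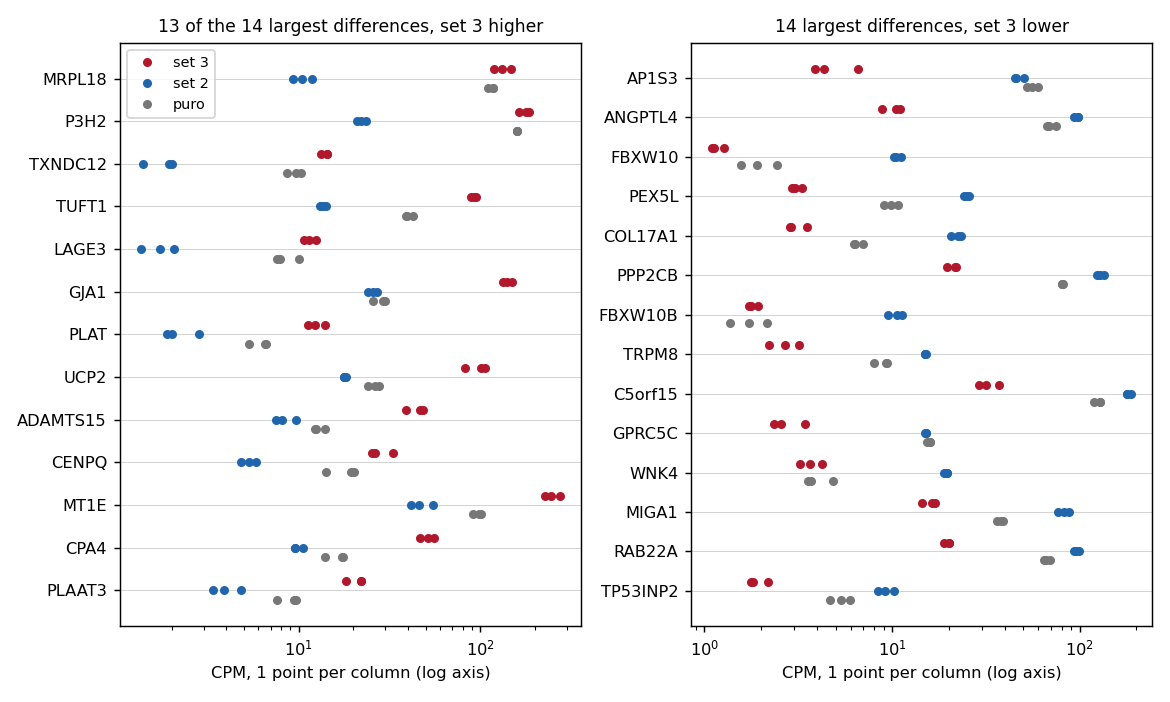
CPM of each column on a log axis for 13 of the 14 largest higher (left panel) and the 14 largest lower (right panel) differences, with set 3 in red, set 2 in blue and puro in grey, 1 point per column. The genes were selected so that set 3 and set 2 do not overlap. The puro points lie near set 3 for MRPL18 and P3H2 but near set 2 for GJA1 and AP1S3.

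Of the gene lists examined, the cytosolic ribosomal proteins showed the most uniform difference. Each ribosome holds 1 copy of nearly all of these proteins, and their mRNAs are known for a start called 5′ TOP, a C followed by a run of pyrimidines, through which mTOR signalling regulates their translation. Of 79 ribosomal protein genes, 78 were higher in set 3 and none was lower, against 30.2% higher and 31.2% lower over all tested genes. The median difference was 0.69, beside -0.02 over all tested genes, with a range from 0.18 to 1.31. The large subunit had 46 of 47 genes higher (median 0.70) and the small subunit 32 of 32 (median 0.63). The gene not called was RPLP0 of the ribosomal stalk, at 0.18 (SE 0.08, edgeR adjusted p = 0.0577). Without set 3 column 1 and set 2 column 1, again 78 genes were higher, and the median was 0.57.

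Summed over the 79 genes, ribosomal protein mRNAs reached between 72950 and 80930 CPM in set 3, between 42540 and 49990 CPM in set 2, and between 58800 and 67360 CPM in puro. The 3 groups did not overlap, with set 3 above puro and set 2 below it. The puro mean lay between the sets in 74 of the 79 genes. The median gene was 0.26 above puro in set 3 and 0.40 below puro in set 2 on the log2 scale, given as values with no test. RPL19, a protein of the large subunit, had 1290, 1158 and 1228 CPM in set 3, against 465, 533 and 524 CPM in set 2, and 1121, 1071 and 1114 CPM in puro (1.27, SE 0.07, edgeR adjusted p = 6.67e-14). RPS27, of the small subunit, had 890.4, 804 and 841 CPM in set 3, 292, 436 and 388 CPM in set 2, and 673, 492 and 511 CPM in puro (1.18, SE 0.10). Ribosomal protein genes have many processed pseudogenes with near-identical sequence, and how reads that match several places were counted is not given in the sources used here, so single values are uncertain. Fewer cells of a kind and less RNA per cell cannot be told apart in bulk samples.

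Other mRNAs of the same class were described next. Of 25 tested mRNAs that are known to carry a 5′ TOP start but encode no ribosomal protein, 19 were higher in set 3 and none was lower. The share higher was 76.0%, beside 30.2% over all tested genes, and the median was 0.29. With library totals only, 12 were higher (median 0.16). TPT1, translationally controlled tumour protein, had 583, 543 and 523 CPM in set 3, against 157, 165 and 177 CPM in set 2, and 531, 500.1 and 526 CPM in puro, a log2 difference of 1.72 (SE 0.07, edgeR adjusted p = 7.89e-17). NPM1, the nucleolar protein nucleophosmin, had 2465, 2009 and 1958 CPM in set 3, 878, 970.1 and 982 CPM in set 2, and 1881, 1890 and 1960 CPM in puro (1.18, SE 0.08). In both genes set 2 lay far below puro and set 3 close to it. Of the initiation factor genes on the list, EIF3D, EIF3E, EIF3F, EIF3H, EIF3K and EIF4A2 were higher in set 3, at 0.19 to 0.68, while EIF2S3, EIF3L, EIF3M and EIF4B did not pass the test, at -0.06 to 0.16; these were named after their values were seen.

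The annotated starts of 6 of these genes are shown to let the pyrimidine runs be compared with the differences. They are from RefSeq, build GRCh38.p14, 5′ to 3′ on the coding strand, with 15 bases before the annotated start and 15 from it, and capitals mark the unbroken pyrimidine run that begins at the annotated start with a C.
RPL19, chr17:39200268-39200297, plus strand: tgggctctccccttcgcagataatgggagg
RPL4, chr15:66504841-66504870, minus strand: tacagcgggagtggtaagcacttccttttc
RPS27, chr1:153990747-153990776, plus strand: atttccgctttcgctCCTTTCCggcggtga
RPS15, chr19:1438381-1438410, plus strand: tgcgcaggcgcggacCaaagcgatctcttc
TPT1, chr13:45341169-45341198, minus strand: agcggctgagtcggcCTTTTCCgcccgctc
NPM1, chr5:171387834-171387863, plus strand: cggggagcctgcgtcCTTTCCCTggtgtga
RPS27 and TPT1 carry runs of 7 pyrimidines at the annotated start and NPM1 a run of 8, whereas RPL19 and RPL4 start with a G and an A there, with pyrimidines close by, and RPS15 has a single C.

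A start window was at hand for 63 ribosomal protein genes and 10605 other tested genes. A C followed by at least 4 pyrimidines (C or T) stood exactly at the annotated start in 43 of the 63 ribosomal protein genes (68.3%) and in 522 of the other genes (4.92%). Ribosomal protein genes had a median difference of 0.66 with this start and 0.69 without it. Other genes had a median of 0.06 with it and -0.02 without it, and 35.6% against 30.1% were higher in set 3, while 28.2% against 31.4% were lower. The gap was smaller when the run could begin within 3 bases of the annotated start. Medians were then 0.02 and -0.02, with 31.8% against 30.1% higher and 28.8% against 31.6% lower. Only the coding strand was searched, and a match describes letters in an annotation and not a start used in these cells.

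Ribosome biogenesis genes were also mostly higher in set 3. Of 42 tested genes for nucleolar factors and RNA polymerase I subunits, 35 were higher and 2 lower (83.3% and 4.76%). This stood beside 30.2% and 31.2% over all tested genes, and the median was 0.51. NOP58, a core protein of the particles that methylate ribosomal RNA, had 246, 222 and 216 CPM in set 3, against 54.2, 58.6 and 55.9 CPM in set 2, and 87.7, 92.7 and 79.2 CPM in puro, a log2 difference of 2.02 (SE 0.07, edgeR adjusted p = 5.71e-18). Its level lay above puro in set 3 and below it in set 2, at least 1.5-fold on each side. NOB1, the nuclease that completes 18S ribosomal RNA, had 119.9, 124 and 119 CPM in set 3, 60.0, 56.6 and 60.4 CPM in set 2, and 111, 107 and 107 CPM in puro (1.03, SE 0.07). The 2 lower genes were RRS1 (-0.85, SE 0.07) and NOP14 (-0.23, SE 0.07), both assembly factors. RRS1 stood highest in puro, while for NOP14 the puro and set 2 columns overlapped.

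MYC, the transcription factor known to drive ribosome biogenesis and a proposed IGF2BP target, had 186, 217 and 203 CPM in set 3, against 79.5, 80.7 and 75.5 CPM in set 2, and 103, 101 and 106 CPM in puro. All set 3 columns were above puro and all set 2 columns below it. The log2 difference was 1.36 (SE 0.07, edgeR adjusted p = 8.85e-15). Of 20 aminoacyl-tRNA synthetases, which charge tRNAs with amino acids, 9 were higher and 2 lower (45.0% and 10.0%, median 0.13, or 0.01 with library totals only), led by KARS1 with 344, 315 and 296 CPM in set 3, 185, 187 and 195 CPM in set 2, and 294, 294 and 314 CPM in puro. Of 31 proteasome subunits, 14 were higher and 2 lower (45.2% and 6.45%), beside 30.2% and 31.2% over all tested genes. Their median was 0.13, and with library totals only 9 were higher (median 0.01). PSMC4, an ATPase of the proteasome's regulatory particle, had 122, 136 and 126 CPM in set 3, 60.0, 57.8 and 60.8 CPM in set 2, and 110.5, 96.3 and 108 CPM in puro (1.11, SE 0.07).

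**Figure D3:**
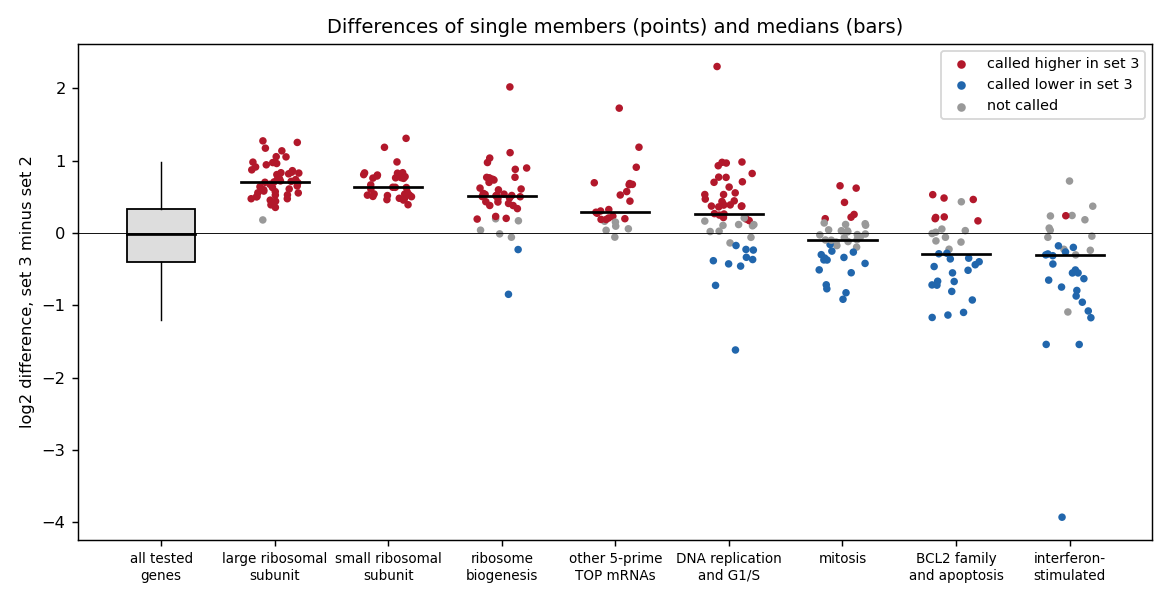
Log2 difference of set 3 minus set 2 for every tested member of 8 gene lists (points, red where called higher, blue where called lower, grey where not called), with the list's median as a bar; the box on the left shows the median and quartiles of all 13138 tested genes, with lines to the 5th and 95th percentiles. Ribosomal protein and ribosome biogenesis genes lie above 0 almost throughout, at medians of 0.70, 0.63 and 0.51, whereas mitosis, apoptosis and interferon-stimulated genes have medians below 0.

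The mitochondrial translation and respiration genes encoded in the nucleus were more often higher than lower in set 3. Of 76 mitochondrial ribosomal proteins, 51 were higher and 7 lower (67.1% and 9.21%, median 0.29), beside 30.2% and 31.2% over all tested genes. With library totals only, 34 were higher (median 0.16). Behind MRPL18, MRPS27 of the small subunit had 75.2, 68.7 and 77.5 CPM in set 3, 32.6, 34.8 and 32.4 CPM in set 2, and 52.1, 55.2 and 61.0 CPM in puro (1.15, SE 0.07). MRPS18B and MRPS35 were lower in set 3, at -0.49 (SE 0.07) and -0.52 (SE 0.08), with puro above both sets. Of 75 nuclear genes for the respiratory chain and ATP synthase, 52 were higher and 5 lower (69.3% and 6.67%). Their median was 0.30, or 0.18 with library totals only, and by limma on log2(FPKM + 1), 33 were higher.

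The largest difference of that list was in complex II. SDHD, a membrane anchor of succinate dehydrogenase, had 21, 19.7 and 14.5 CPM in set 3, against 56.9, 68.1 and 69.2 CPM in set 2, and 62.9, 70.1 and 68.9 CPM in puro, a log2 difference of -1.82 (SE 0.10, edgeR adjusted p = 7.08e-14). UQCR11 of complex III was higher in set 3 (0.89, SE 0.10), as was NDUFC1 of complex I (0.68, SE 0.08). Of the 13 mRNAs encoded in mitochondrial DNA, 2 were higher and 4 lower (15.4% and 30.8%, median -0.02), beside 30.2% and 31.2% over all tested genes. With the length trend removed 9 were lower; with the replicate block, or without set 3 column 2, set 2 column 2 or set 2 column 3, 2 were lower. MT-CYB, at 1414, 1452 and 1369 CPM in set 3, 1918, 1971 and 1888 CPM in set 2, and 1103, 1095 and 1057 CPM in puro, was lower, at -0.45 (SE 0.07), and MT-CO1, MT-ND3 and MT-CO2 were lower as well, the last 2 being named after their values were seen. MT-ND4 was higher by 0.20 (SE 0.07) and MT-ND4L by 0.19 (SE 0.06), and the difference of MT-ND4L changed sign to -0.10 when the length trend was removed.

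Genes for entry into S phase and DNA replication differed by member. Of 50 tested, 30 were higher and 10 lower in set 3 (60.0% and 20%, beside 30.2% and 31.2% over all tested genes). Their median was 0.26, or 0.14 with library totals only. CCNE1, cyclin E1, which activates CDK2 at the start of S phase (chr19:29811991-29824312, plus strand, GRCh38.p14), had 23.4, 23.5 and 25.3 CPM in set 3, against 4.41, 4.85 and 5.4 CPM in set 2, and 24.1, 23 and 23.3 CPM in puro, a log2 difference of 2.30 (SE 0.11, edgeR adjusted p = 2.24e-15). E2F7, a repressor of E2F target genes, showed the reverse, with 77.6, 78.7 and 77.4 CPM in set 3, 253, 222 and 242 CPM in set 2, and 79.1, 85.2 and 75.5 CPM in puro (-1.62, SE 0.07). In both genes set 3 was at the puro level and set 2 away from it, below for CCNE1 and above for E2F7. RPA1, a subunit of the protein that coats single-stranded DNA, had 194, 198 and 191 CPM in set 3, 103, 99.4 and 104 CPM in set 2, and 232, 229.7 and 235 CPM in puro (0.93, SE 0.06). All 6 subunits of the MCM helicase, MCM2 to MCM7, chosen after their values were seen, were higher in set 3, from 0.26 for MCM7 to 0.82 for MCM6.

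CCND1, cyclin D1, a proposed IGF2BP target that acts earlier in G1, was lower in set 3 with 398, 446 and 451 CPM, against 869, 814 and 825 CPM in set 2, and 462, 452 and 407 CPM in puro (-0.95, SE 0.07, edgeR adjusted p = 7.9e-12). Here too the set 3 and puro columns overlapped and set 2 stood alone. Of 41 mitosis genes, 6 were higher and 15 lower (14.6% and 36.6%, median -0.10), beside 30.2% higher and 31.2% lower over all tested genes. With library totals only 22 were lower (median -0.22), without set 3 column 1 the number was 23, and without both doubted columns 24. TOP2A, the topoisomerase that untangles chromosomes, had 407, 334 and 309 CPM in set 3, 632, 658 and 693 CPM in set 2, and 614, 717 and 678 CPM in puro (-0.92, SE 0.08). KIF4A, a chromosome-bound kinesin, was higher in set 3 at 289, 279.5 and 271 CPM, against 181, 174 and 191 CPM in set 2, and 312, 330.4 and 328 CPM in puro (0.62, SE 0.07). Of 35 replication-dependent histone genes, 17 were tested, 2 of them higher and 4 lower, and 0 were lower among those with a mean of at least 5 CPM; these mRNAs mostly lack a poly(A) tail and were measured here in polyadenylated RNA, and the genes are near-identical copies.

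**Figure D4:**
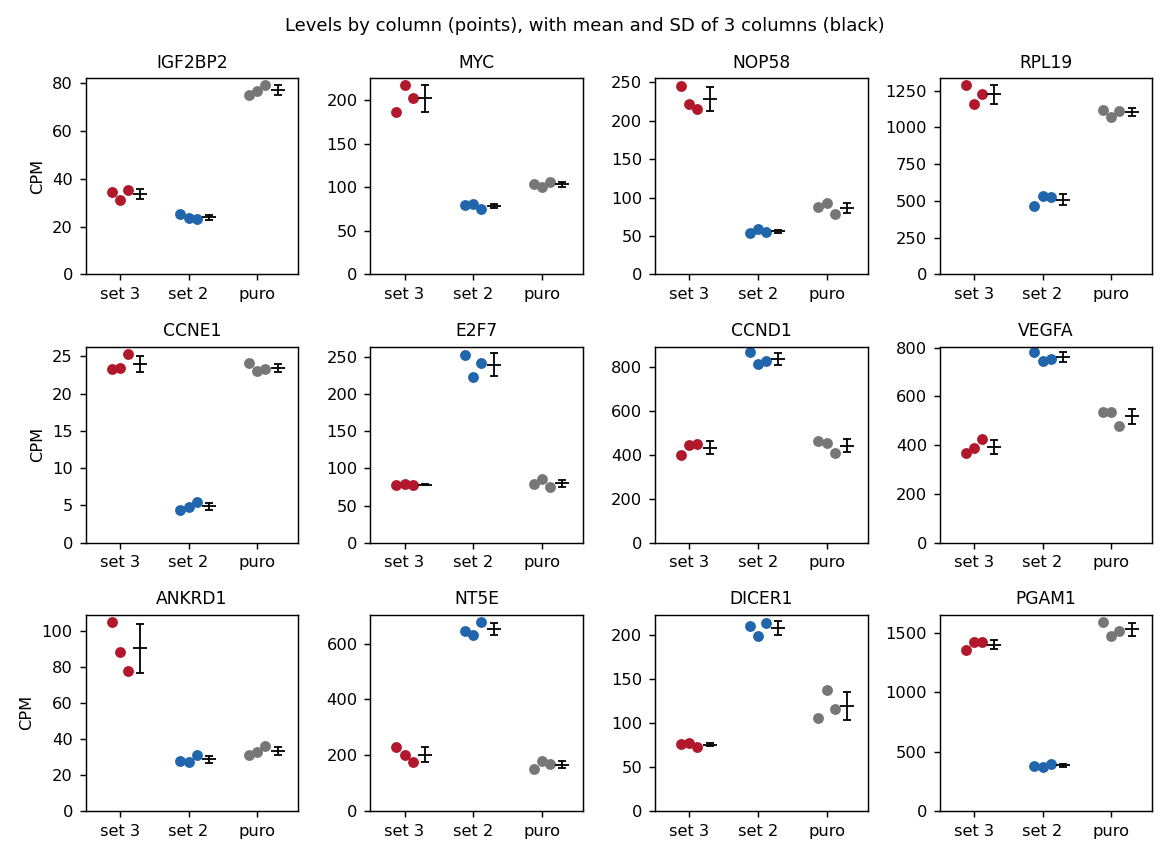
CPM of each column (points) for 12 genes, with the mean and SD of 3 columns in black, set 3 in red, set 2 in blue and puro in grey, each axis starting at 0. In CCNE1, E2F7 and CCND1 set 3 is at the puro level, in MYC and NOP58 the sets lie on opposite sides of puro, in ANKRD1 set 2 is near the puro level, and IGF2BP2 is below puro in both sets.

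Enzymes of glycolysis showed large differences in single steps. Of 26 glycolysis genes, 12 were higher and 4 lower in set 3 (46.2% and 15.4%, beside 30.2% and 31.2% over all tested genes). The median was 0.18, and 0.05 with library totals only. PGAM1, phosphoglycerate mutase, had 1353, 1422 and 1423 CPM in set 3, against 379.7, 374 and 394 CPM in set 2, and 1589, 1475 and 1518 CPM in puro, a log2 difference of 1.87 (SE 0.07, edgeR adjusted p = 8.98e-18). LDHB, the lactate dehydrogenase subunit that favours pyruvate formation, had 170.0, 154 and 136 CPM in set 3, 27.2, 37.5 and 34.5 CPM in set 2, and 151, 97.2 and 112 CPM in puro (2.21, SE 0.10). In both genes set 2 lay far below puro. PFKFB2, which sets the level of a phosphofructokinase activator, was lower in set 3 at 9.34, 10.1 and 8.27 CPM, against 21.1, 18.2 and 18.1 CPM in set 2, and 17.8, 20.1 and 18.2 CPM in puro (-1.05, SE 0.11). The glucose transporter SLC2A3 was lower as well (-0.65, SE 0.09), with set 3 near puro. GAPDH (1.48), GPI (1.27) and ENO1 (0.96), chosen after their values were seen, were higher in set 3; GAPDH and ENO1 have processed pseudogenes that can share reads.

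Cholesterol synthesis and uptake was split, with 9 of 24 genes higher and 10 lower (37.5% and 41.7%, beside 30.2% and 31.2% over all tested genes). DHCR7, a reductase of the last steps, was higher in set 3 by 0.92 (SE 0.08). IDI1, an isomerase of an early step, had 34.9, 25 and 25 CPM in set 3, 60.8, 74.2 and 68.1 CPM in set 2, and 70.3, 75.3 and 81.1 CPM in puro (-1.26, SE 0.10), and STARD4, a cholesterol carrier, was lower, at -1.12 (SE 0.08). Of 24 genes of the ATF4 and amino acid response, 9 were higher and 7 lower (37.5% and 29.2%). Their median of 0.09 was -0.04 with library totals only. PSAT1 of serine synthesis had 129.7, 122 and 132 CPM in set 3, 61.2, 57.1 and 59.7 CPM in set 2, and 64.9, 62.9 and 67.3 CPM in puro (1.11, SE 0.07). SLC7A5, the large neutral amino acid transporter, was higher by 1.22 (SE 0.09), while SLC7A11, the cystine transporter, was lower, at -0.80 (SE 0.08), with puro lowest.

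The TGF-beta pathway, named in the title of the series, was examined by role. TGF-beta ligands bind TGFBR2, which activates TGFBR1 and then SMAD2 and SMAD3. Of 39 ligands, receptors, SMADs and regulators, 13 were higher and 10 lower in set 3 (33.3% and 25.6%). These shares are close to the 30.2% and 31.2% over all tested genes, and with library totals only 5 were higher. The ligand TGFB2 had 239, 238 and 244 CPM in set 3, against 132, 129 and 124 CPM in set 2, and 65.9, 69.0 and 70.5 CPM in puro (0.90, SE 0.06, edgeR adjusted p = 4.53e-12). Both sets were above puro for TGFB2, and set 3 was the higher. The receptor TGFBR2 ran the other way, with 96.8, 97.1 and 91.3 CPM in set 3, 173, 160.3 and 172 CPM in set 2, and 232, 251 and 224 CPM in puro (-0.83, SE 0.07). TGFBR1 was higher in set 3 (0.49), and SMAD2 and SMAD3 did not pass the test at 0.11 and -0.03; these 3 were chosen after their values were seen.

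Genes known to be induced by TGF-beta were more often higher than lower in set 3, with 22 of 39 higher and 8 lower (56.4% and 20.5%, beside 30.2% and 31.2% over all tested genes). The median was 0.45, with 0.33 under library totals only and 0.17 on log2(FPKM + 1). CCN1, a matricellular protein, had 765, 885 and 935 CPM in set 3, 319, 291 and 289 CPM in set 2, and 610.4, 551 and 608 CPM in puro (1.52, SE 0.08, edgeR adjusted p = 4.54e-15), with set 3 above and set 2 below every puro column. IL11, a cytokine, was lower in set 3 at 49.9, 54.1 and 51.2 CPM, against 99.3, 101 and 100.2 CPM in set 2, and 59.2, 61.2 and 66.2 CPM in puro (-0.95, SE 0.07). ACTA2 (-1.74) and TAGLN (-1.20), contractile genes of the same list chosen after their values were seen, were lower as well.

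Targets of YAP and TEAD, a growth pathway that shares several genes with the list above, were higher in 14 of 21 and lower in 2. These are 66.7% and 9.52%, beside 30.2% and 31.2% over all tested genes. Their median was 0.39, or 0.26 on log2(FPKM + 1). ANKRD1 had 105, 88.1 and 77.7 CPM in set 3, against 27.9, 27.1 and 30.8 CPM in set 2, and 31.2, 32.9 and 35.8 CPM in puro (1.66, SE 0.09, edgeR adjusted p = 2.75e-14). NT5E, the surface nucleotidase CD73, was the main exception, with 230.4, 199 and 177 CPM in set 3, 646, 632 and 677 CPM in set 2, and 152, 177 and 169 CPM in puro (-1.69, SE 0.08). Set 2 alone was far from puro for NT5E, and set 3 alone for ANKRD1.

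HIF targets were split, with 9 of 31 higher and 14 lower (29.0% and 45.2%). This stood beside 30.2% and 31.2% over all tested genes. Their median was -0.13, or -0.25 with library totals only. VEGFA, the vascular growth factor, had 367, 389 and 424 CPM in set 3, against 783, 745 and 752 CPM in set 2, and 535, 537 and 480.3 CPM in puro (-0.95, SE 0.07, edgeR adjusted p = 8.38e-12). EGLN3, an oxygen-sensing hydroxylase, had 7.37, 7.94 and 7.17 CPM in set 3, 25.1, 23.4 and 22.6 CPM in set 2, and 21.4, 20.8 and 21 CPM in puro (-1.66, SE 0.10). IGFBP3, a binding protein of insulin-like growth factors, was higher at 494, 495 and 449 CPM in set 3, against 206, 227 and 212 CPM in set 2, and 797, 752 and 765 CPM in puro (1.16, SE 0.07).

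Interferon-stimulated genes were lower in set 3 in 21 of 35 cases and higher in 1 (60.0% and 2.86%, median -0.30). Over all tested genes, 31.2% were lower and 30.2% higher. IFIT3, an antiviral protein, had 16.3, 14.4 and 16.3 CPM in set 3, against 31.1, 33.2 and 35.1 CPM in set 2, and 29.8, 28.6 and 27.5 CPM in puro (-1.08, SE 0.09, edgeR adjusted p = 8.28e-11). DDX60, a helicase of the same response, had 6.67, 5.95 and 4.33 CPM in set 3, 14.7, 17.7 and 16.7 CPM in set 2, and 7.31, 6.80 and 5.84 CPM in puro (-1.54, SE 0.14). Thus set 3 was the low set against puro for IFIT3, and set 2 the high set for DDX60. BST2 was the 1 higher gene (0.24, SE 0.07). Of 29 NF-kB targets and cytokines, 10 were higher and 8 lower (34.5% and 27.6%), close to the shares over all tested genes, and their median of 0.10 was -0.02 with library totals only. CXCL5, a neutrophil chemokine, had 53.3, 43.4 and 42.8 CPM in set 3, 219, 208 and 240.5 CPM in set 2, and 356, 394 and 391 CPM in puro (-2.26, SE 0.08).

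Of 20 chaperones and unfolded protein response genes, 6 were higher and 10 lower in set 3 (30.0% and 50%), beside 30.2% and 31.2% over all tested genes. Their median was -0.17, and -0.29 with library totals only. PDIA3, a protein disulfide isomerase, had 282, 275 and 277 CPM in set 3, against 848, 842 and 838 CPM in set 2, and 702, 713 and 695 CPM in puro (-1.60, SE 0.07, edgeR adjusted p = 8.91e-17). EDEM1, which directs misfolded proteins to degradation, had 24.3, 22.4 and 21.6 CPM in set 3, 90.1, 84.1 and 86.5 CPM in set 2, and 63.1, 78.7 and 68.3 CPM in puro (-1.93, SE 0.08). Of 34 genes of the BCL2 family and apoptosis, 7 were higher and 18 lower (20.6% and 52.9%, median -0.28). The lower genes included both inhibitors and promoters of cell death: BCL2L2, a protective member, at -1.17 (SE 0.07), and the death receptor FAS at -1.14 (SE 0.08). PMAIP1 and BOK, which promote cell death, were higher by 0.53 (SE 0.07) and 0.48 (SE 0.07), with the puro mean below both set means. Of 23 p53 targets, 6 were higher and 10 lower (26.1% and 43.5%). Their median was -0.22, or -0.35 with library totals only. PLK2 was higher by 1.31 (SE 0.07), against the direction of most called members, while FAS, which is also on this list, was lower.

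Adhesion and matrix genes were split. Of 16 integrins, 2 were higher and 6 lower (12.5% and 37.5%), the lower share close to the 31.2% over all tested genes. Their median was -0.46, and -0.10 among those with a mean of at least 5 CPM. ITGA2, a collagen receptor subunit, had 19.8, 21.9 and 17.1 CPM in set 3, against 79.7, 74.4 and 83.0 CPM in set 2, and 18.7, 24.3 and 21.8 CPM in puro (-2.01, SE 0.09, edgeR adjusted p = 2.38e-16). ITGB3, a vitronectin receptor subunit, was higher in set 3 at 135, 140.1 and 137 CPM, against 70.8, 64.7 and 63.5 CPM in set 2, and 205, 232 and 223 CPM in puro (1.05, SE 0.07). Of 36 fibrillar and basement membrane genes, 10 were higher and 10 lower (27.8% each), with THBS1 (1.03, SE 0.07) and COL5A1 (1.54, SE 0.13) among the higher and FBN1 (-1.65, SE 0.08) and LAMB3 (-1.17, SE 0.07) among the lower. Of 20 metalloproteinases and inhibitors, 8 were higher and 5 lower (40% and 25%), beside 30.2% and 31.2% over all tested genes. With library totals only 5 were higher, and the median of 0.11 became -0.02. ADAM9 and ADAM17, both membrane-bound sheddases, differed in opposite directions, at 1.43 (SE 0.07) and -1.02 (SE 0.08).

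Of 29 m6A writers, erasers and readers, 8 were higher and 6 lower (27.6% and 20.7%), below the 30.2% and 31.2% over all tested genes. The eraser ALKBH5 had 112, 118 and 112 CPM in set 3, against 73.0, 76.6 and 77.3 CPM in set 2, and 121, 122 and 121 CPM in puro (0.59, SE 0.07, edgeR adjusted p = 3.48e-08). The writer METTL16 was lower, at -0.38 (SE 0.08). Of 16 genes for hairpin and microRNA processing, 6 were higher and 3 lower (37.5% and 18.8%). DICER1 had 75.8, 77.2 and 73.1 CPM in set 3, 211, 198 and 214 CPM in set 2, and 106, 137 and 116 CPM in puro (-1.46, SE 0.07), with set 3 below and set 2 above the puro columns. XPO5 was higher in set 3 at 184, 185 and 193 CPM, against 131, 125 and 129.7 CPM in set 2, and 106, 103 and 103 CPM in puro (0.54, SE 0.06). Of 14 tested mRNAs proposed as IGF2BP targets, 6 were higher and 4 lower (42.9% and 28.6%), beside 30.2% and 31.2% over all tested genes. Their median of 0.02 was -0.10 with library totals only. The largest differences on this list were in MYC (higher) and CCND1 (lower). CD44, an adhesion receptor, was lower in set 3 (-0.51, SE 0.07), with both sets above puro.

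**Figure D5:**
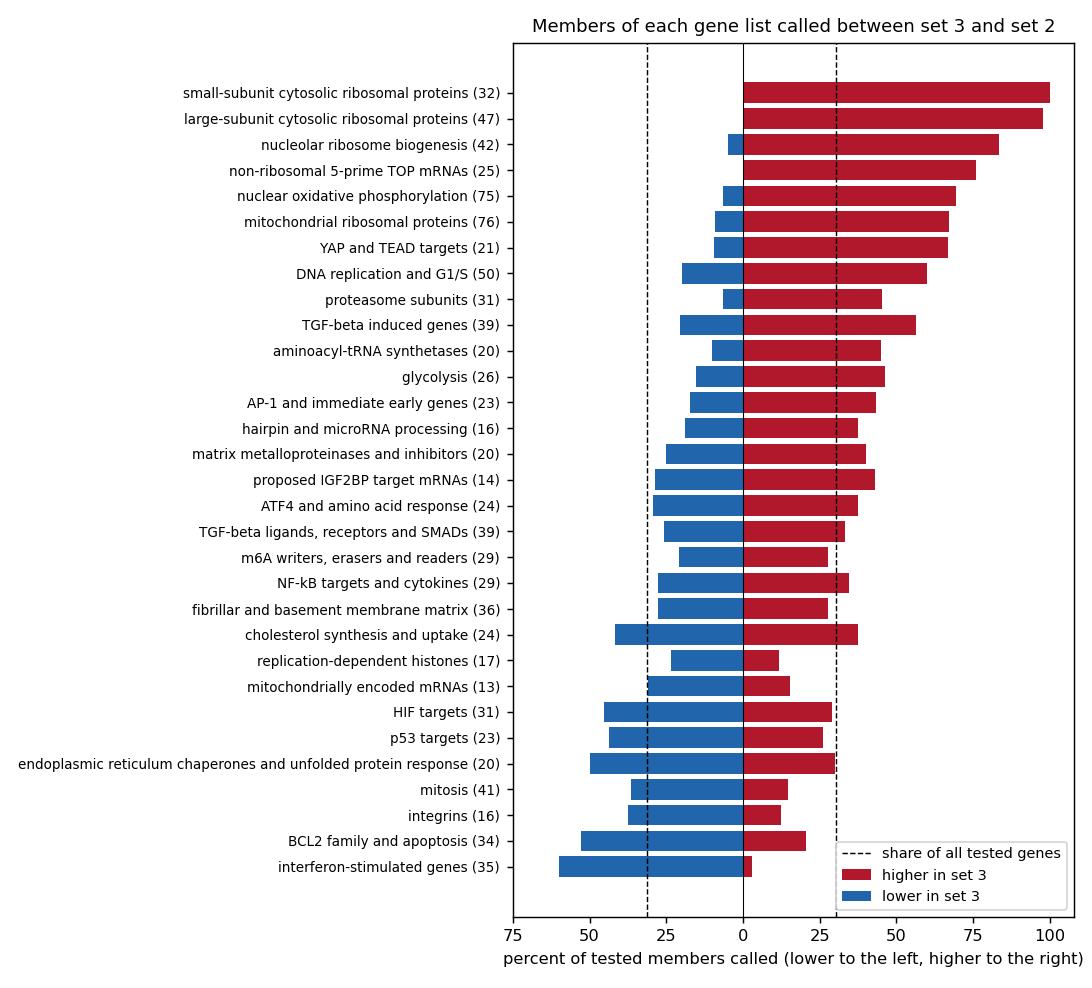
Percent of tested members of each of 31 gene lists called lower (blue, to the left) or higher (red, to the right) in set 3 by the edgeR test, with the number tested in brackets; broken lines mark the shares over all tested genes, 31.2% lower and 30.2% higher. Ribosomal protein, ribosome biogenesis and 5′ TOP lists lie far to the right of the broken line, and interferon-stimulated genes, at 60.0% lower, lie farthest to the left.

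Some renal markers were present in both sets, and others averaged under 1 CPM. PAX8, the renal transcription factor, averaged 129 CPM in set 3, 253 CPM in set 2 and 292 CPM in puro, a log2 difference of -0.97. Of 14 renal or carcinoma markers 10 were tested, 1 of them higher and 4 lower in set 3 (10% and 40%). Over all tested genes 30.2% were higher and 31.2% lower. The list summed to between 6364 and 6797 CPM in set 3, 6460 and 6633 CPM in set 2, and 5153 and 5476 CPM in puro. Most of that sum was VIM, with means of 5262 CPM in set 3, 5058 CPM in set 2 and 3955 CPM in puro. Of the 14 markers, 5 averaged under 1 CPM over all columns. CA9 was near 0 in all columns. The 10 T and B cell markers summed to under 1 CPM in every column, and the 1 tested was higher in set 3. Of 10 myeloid markers 4 were tested and 3 were lower in set 3, with sums of 28.9 to 32.5 CPM in set 3, 53.4 to 56.8 CPM in set 2 and 33.8 to 37.2 CPM in puro, mostly from the lysosomal gene CD68, while AIF1, TYROBP and S100A8 were at 0. Of 10 endothelial markers 4 were tested and 1 was lower, and the list summed to 5.77 to 6.91 CPM in set 3, 6.40 to 8.52 CPM in set 2 and 5.69 to 6.59 CPM in puro. Of 10 fibroblast and mural markers 7 were tested, 3 of them higher and 2 lower, with sums of 61.9 to 72.9 CPM in set 3, 54.8 to 57.3 CPM in set 2 and 115 to 121 CPM in puro. The part of these marker differences in the results above was not tested.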

How the data were processed

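Polyadenylated RNA from 786-O cells was sequenced. RNAiso Plus and a TruSeq library kit were used, per the labels' protocols. The deposited counts are whole-number read counts per gene; fastp 0.23.2, STAR 2.7.10a, featureCounts, DESeq2 and hg38 are named in the submitters' processing notes. Which annotation, strand setting and rule for multimapping reads were used is not given in the sources used here. The deposited FPKM values are these counts rescaled: the implied gene length was identical across columns in 16722 of 16722 genes (relative tolerance 1e-06). Of the listed genes, 2130 had no count in any column.

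Set 3 was tested against set 2 with the edgeR 4.0.16 quasi-likelihood test (R 4.3.3) after filterByExpr on the 6 columns, with TMM factors over all 9 columns and Benjamini-Hochberg adjustment over all tested genes. The main fit treated the 6 columns as unpaired, and pairing by sample number was an alternative. Standard errors were derived from the F statistic. At an unadjusted p under 0.05, 8496 genes passed. The test was tried on simulated data before use, in which far fewer genes differed than were called here. Precision is limited by 3 columns a set. The common biological coefficient of variation was 0.0745, and 4187 genes were above and 4381 below in every column of set 3.

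The comparison, 31 gene lists and 5 marker lists were chosen with earlier results of these data known. Genes named were the IGF2BP family, the 14 largest differences each way, up to 2 higher and 2 lower members of each list with the smallest FDR, and 6 genes with the sets on opposite sides of puro; others are marked. Some genes that this rule names are not reported here, but counts include them. The largest differences and the list members also needed a mean of at least 5 CPM over the 6 columns. Of the tested genes, 12981 matched a RefSeq entry by symbol and 10668 had a start sequence. Alternatives comprised 20 further fits with other scalings, filters, DESeq2 1.42.0, limma 3.58.1, a replicate block and columns left out.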

Additional observations from a re-analysis of the deposited data

How the results depend on the processing

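No gene called between the sets was called in the opposite direction in any of 20 alternative fits. Leaving out each column in turn gave 7240 to 8351 calls, 3576 to 4127 higher and 3664 to 4224 lower. Requiring at least 2-fold left 1487 calls. Requiring a mean of at least 5 CPM left 6962 of 10308 genes; DESeq2 gave 8025 and limma-voom 8107. With library totals only, 36.2% of the calls were higher, against 49.2%, and the median over all genes was -0.14. Of non-ribosomal 5′ TOP mRNAs, 12 were then higher, and 11 on log2 FPKM with either pseudocount, against 19. On log2(FPKM + 1), 33 oxidative phosphorylation genes were higher, against 52. Pyrimidine runs within 3 bases of the start were found in 13.9% of other genes, against 4.92% exactly at it. The median of 11 of the 31 lists changed sign under at least 1 alternative, 9 of them under another scaling or the length trend. The 141 named genes gave 2819 alternative values, of which 2797 kept direction and call, 21 lost the call (MT-ND4L, MT-ND4, BST2 and H2BC12) and 1 reversed, MT-ND4L, at -0.10 with the length trend removed and no longer called; the cause was not tested.

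With the replicate number as a block, 7600 genes were called, 3722 higher and 3878 lower. Deviations of same-numbered columns of set 3 and set 2 correlated across genes at -0.247, -0.0246 and -0.206. For differently numbered columns the correlations ran from -0.079 to 0.234. Same-numbered columns thus shared no positive deviation, although reading the last number as the sample number would pair them by sample. The main fit was left unpaired, and what the numbers name was not tested. Of the lowest of 5 equal bins by level, 38.3% were called, against 70.1% of the highest; the part of depth in this was not tested.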

Other observations

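Immediate early genes, which respond within minutes to growth signals, were higher in set 3 in 10 of 23 cases and lower in 4. These are 43.5% and 17.4%, beside 30.2% higher and 31.2% lower over all tested genes. DUSP1, a phosphatase that switches off MAP kinases, had 122, 123 and 106 CPM in set 3, against 40.9, 36.8 and 38.1 CPM in set 2, and 66.6, 63.6 and 63.1 CPM in puro (log2 difference 1.60, SE 0.08, edgeR adjusted p = 2.25e-15). JUNB, a subunit of AP-1, had 74.7, 85.3 and 79.8 CPM in set 3, 27.6, 29.2 and 28.1 CPM in set 2, and 132, 117 and 134 CPM in puro. KLF6, a transcription factor of the same class, ran the other way with 242, 252 and 256 CPM in set 3, 459, 416 and 432 CPM in set 2, and 211, 223 and 209 CPM in puro (-0.80, SE 0.07). The median of this list, 0.12, became -0.01 with library totals only.

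ADAM9, described above by its difference, had 449, 410.1 and 386 CPM in set 3, against 151, 149.5 and 162 CPM in set 2, and 319.7, 349 and 323 CPM in puro, so that the sets lay on opposite sides of the control. MMP2, a gelatinase, had 199.7, 232 and 219 CPM in set 3, 112, 114 and 110.0 CPM in set 2, and 258, 233 and 247 CPM in puro (0.95, SE 0.07). MMP14, the membrane-bound protease known to activate it, was lower in set 3 at 493, 577 and 584 CPM, against 864, 837 and 836 CPM in set 2, and 486, 451 and 444 CPM in puro (-0.62, SE 0.07). For both genes the set 3 mean was nearer to puro than the set 2 mean.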
